A study of Mus musculus with 4 samples.

Results

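The genes of the constitutive proteasome were followed in induced regulatory T (iTreg) cells cultured with or without iron. The members were all gene rows whose Ensembl identifier maps to a protein-coding symbol Psma1 to Psma7, Psmb1 to Psmb7, Psmc1 to Psmc6 or Psmd with any number, which gave 34 genes of 47729 in the count table. The interferon-inducible catalytic subunits Psmb8, Psmb9 and Psmb10 are not members and serve as comparison. By role the members divide into the alpha ring (7 genes) and the beta ring (7) of the 20S core, the ATPases of the base (6), the other base subunits (3), the lid (8), and the chaperones Psmd5, Psmd9 and Psmd10, which help assemble the base and leave before the particle is complete.

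RNA was sequenced from CD4 T cells of C57BL/6 mice, labelled as spleen, that were differentiated in culture. All cells received IL-2 at 100 U/mL, TGF-β at 5 ng/mL and blocking antibodies against IL4 and IFNγ (5 µg/mL each). Per the study's methods, iTreg cultures were also stimulated with anti-CD3 and anti-CD28. In addition, FeSO4 cells received ferrous sulfate at 50 µM and Mock cells received PBS, in both cases for 4 days. Each group had 2 libraries, and per the study's methods the 2 pairs came from independent experiments, so p-values measure the spread between these few cultures of 1 strain under 1 dose. These are cultured cells and not Treg cells taken from tissue.

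The proteasome is the large protease that degrades ubiquitin-tagged proteins. Substrates are recognised, stripped of ubiquitin and unfolded by the 19S regulatory particle, which consists of a base with a ring of ATPases and a lid, and are then cut inside the 20S core, a barrel in which rings of alpha subunits gate the entry and rings of beta subunits hold the active sites. Transcription of the subunit genes is known to be raised together by NFE2L1 through antioxidant response elements when proteasome capacity is short, and stimulated lymphocytes exchange the constitutive catalytic subunits for the inducible ones.

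The libraries held 35183187 to 40859178 reads in gene rows, and each member had 1026 to 13898 counts per library, so that counting error was small for all of them. Levels are given as CPM, which relate a count to the size of its library, with sizes adjusted by edgeR's trimmed mean of M-values (TMM). The T cell and Treg markers were high in all 4 libraries, with 11136 to 12806 counts for Cd3e, 22973 to 25605 for Cd4 and 50724 to 66329 for Il2ra. Foxp3, which defines Treg cells, had 23802 and 28997 counts in Mock and 12869 and 17458 in FeSO4. It was lower with FeSO4 relative to library size too, at 586 and 693 CPM without and 375 and 471 CPM with FeSO4. Of 13 markers of other cells, 11 had a row, and their summed level was 41.4 and 30.7 CPM without and 49.7 and 45.4 CPM with FeSO4. Most of this was the erythroid gene Hba-a1 (24.5 and 19.6 against 37.5 and 32.5 CPM), and without it the sums were 16.9 and 11.1 against 12.2 and 12.9 CPM. Ncr1 and Klrb1c, which mark NK cells, were at 0 counts in every library, and the myeloid marker Lyz2 had 164 and 8 counts in Mock and 0 in FeSO4. The part of other cells and of the lower Foxp3 level in the results below was not tested. In bulk RNA a different number of cells of a type and a different amount of RNA per cell cannot be told apart.

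Sequence near the start site is shown for the members on which the antioxidant response element and the largest and smallest changes bear. RefSeq windows from 250 bases before to 50 after the start (GRCm38.p6) were present for 28 of the 34 members, with more than 1 window for 2 of them. The element's core, searched as TGACNNNGC on both strands, was found in 5 of the 28 (17.9%), against 14.0% of 27025 genes with a window. The 5 matches follow 5′ to 3′ on the strand of the gene, with the core in capitals; in Psmc6 and Psmd12 the match is on the opposite strand and so reads as its complement. They lie at chr14:54618019-54618057 (minus strand) for Psmb5, chr11:70525333-70525356 (plus) for Psmb6, chr14:45329582-45329620 (plus) for Psmc6, chr11:107479278-107479304 (plus) for Psmd12 and chr5:123228144-123228182 (plus) for Psmd9.
Psmb5: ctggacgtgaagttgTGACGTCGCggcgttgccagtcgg
Psmb6: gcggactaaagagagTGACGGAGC
Psmc6: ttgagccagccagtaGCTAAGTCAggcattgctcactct
Psmd12: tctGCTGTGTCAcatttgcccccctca
Psmd9: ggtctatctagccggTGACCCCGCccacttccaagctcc

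The CCAAT box, searched on both strands, was found in 11 of the 28 members (39.3%) and in 41.1% of all genes. Another motif was chosen after the sequences had been looked at, among several inspected: the ETS box CCGGAAG, on both strands. Within a window, 0 of its matches shared a base with a match of the other motifs. It was found in 10 of the 28 members (35.7%) and in 9.93% of all genes. The bases upstream of Psma4 and Psma1 lie at chr9:54950739-54950780 (plus strand) and chr7:114276117-114276236 (minus strand). These members had the largest changes in the fit of all 4 libraries without a correction for transcript length and GC content. Capitals mark the CCAAT box within the printed bases of Psma1, and the stretch of Psma4 holds none of the 3 motifs. A further CCAAT match of Psma1, on the opposite strand at -126 to -122 from the start, lies outside the printed bases. The ETS boxes of Psmd2, the member with the lowest fitted value, and of Psmd12, whose level rose, are shown from chr16:20651616-20651642 and chr11:107479501-107479527 (both plus strand), in capitals and on the opposite strand. A match describes the letters only, and no match says only that these letters are not in the window.
Psma4: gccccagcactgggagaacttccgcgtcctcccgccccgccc
Psma1: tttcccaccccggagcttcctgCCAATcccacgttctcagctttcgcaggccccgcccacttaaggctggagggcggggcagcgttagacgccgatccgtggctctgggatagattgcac
Psmd2: ccgcagggcgCTTCCGGtctggaggac
Psmd12: gagcgggcgaCTTCCGGtgcgagtgac

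The proteasome genes as a group were slightly higher in FeSO4-treated iTreg cells. Of the 34 members, 18 rose at an adjusted p under 0.05 in edgeR's quasi-likelihood test, where 10.9% of 13732 genes tested were called higher, and 0 fell, where 9.17% were called lower. At an unadjusted p under 0.05 in the same test 29 members passed, all of them higher, where 17.1% of genes tested were higher and 15.2% lower by that measure, and 0 members were called lower by DESeq2 or limma-voom. The fitted log2 fold change was above 0 for 33 of 34 members (49.9% of all genes), with a median of 0.21 and a range from -0.05 to 0.43, against a median of -0.00 over all genes tested. In 31 members both FeSO4 libraries lay above both Mock libraries (30.1% of all genes), and the exceptions were Psmd2, Psmd3 and Psmd9. The changes were small. The standard errors were 0.06 to 0.10. With edgeR's p-values, 0 members reached the study's threshold, an unadjusted p under 0.05 and a log2 fold change of at least 0.5. By that measure 4.67% of genes were higher. The study itself applied the threshold to p-values of DESeq2's Wald test.

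The number of members past the threshold depended on single libraries. It was 6 without FeSO4 replicate 1 and 8 without Mock replicate 2 (17.6 and 23.5% of members, against 6.1 and 7.2% of genes tested), but 17 without Mock replicate 1 and 14 without FeSO4 replicate 2 (against 8.4 and 7.16% of genes). The calls also moved with transcript length and base composition. Across 8370 tested genes of at least 10 CPM, the log2 fold change fell with the length of the longest coding transcript (Pearson r -0.32, Spearman rho -0.36, across genes, which are not independent) and with its GC content (r -0.19, rho -0.22), and most proteasome transcripts are short. When a smooth trend on both was removed from each library, a step chosen after the data were seen, 5 members passed (Psma4, Psmc3, Psmc5, Psmd8 and Psmd12), 32 were above 0 and the median was 0.094. These 5 are 14.7% of the members, where 10.1% of 11900 genes with a transcript length were called higher in that fit. The part of library preparation and of FeSO4 in the trend cannot be told apart in these data.

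**Figure D1:**
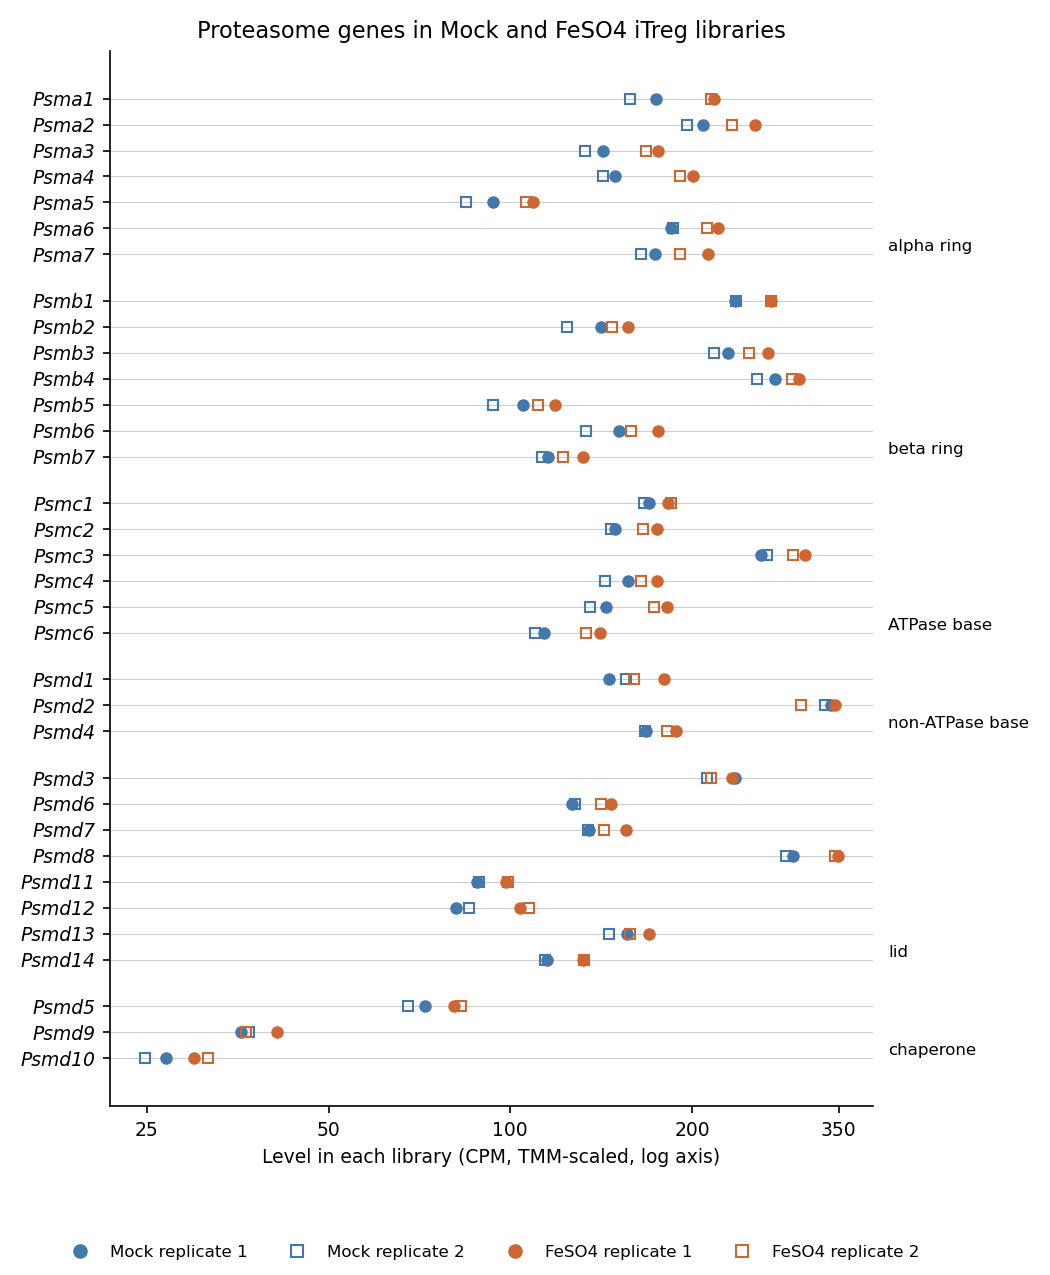
Level of each of the 34 proteasome genes (CPM, horizontal axis on a log scale) in the 2 Mock and 2 FeSO4 libraries, ordered by role. In 31 genes both FeSO4 points lie to the right of both Mock points, and in Psmd2, Psmd3 and Psmd9 the groups overlap.

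All 7 genes of the alpha ring, the gate of the 20S core, rose, where 10.9% of genes tested were called higher. Their median log2 fold change was 0.28, with a range from 0.22 to 0.43. Psma4 (ENSMUSG00000032301, chromosome 9, 54950781 to 54958034, GRCm38.p6) was at 149 and 142 CPM without FeSO4 (Mock replicates 1 and 2) and at 200.4 and 191 CPM with FeSO4 (replicates 1 and 2), the order kept below. The FeSO4 libraries lay well above the Mock libraries, and the log2 fold change of 0.43 ± 0.07 (SE, adjusted p = 0.000223) was the largest among the members. With the length and GC trend removed, Psmd12 (0.242) and Psmc5 (0.229) lay above Psma4 (0.227). The exons of Psma4 overlap those of AY074887 on the opposite strand in GENCODE M1, and since the strand setting of the counting was not stated, reads of the pair cannot be told apart.

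Psma1 (ENSMUSG00000030751, chromosome 7, 114264550 to 114276116) was at 174 and 158 CPM without and 217 and 215 CPM with FeSO4. The Mock libraries differed more from each other than the FeSO4 libraries did, and the groups were separate (0.38 ± 0.07, SE, adjusted p = 0.00081). Psma3 was at 142 and 133 CPM without and 176 and 168 CPM with FeSO4 (0.32 ± 0.07, SE, adjusted p = 0.00287). Psma6 had the smallest log2 fold change of the ring, from 185 and 186 CPM to 221 and 212 CPM (0.22 ± 0.06, SE, adjusted p = 0.0187). Psma2, Psma5 and Psma7 rose by 0.27, 0.28 and 0.25 on the log2 scale, with adjusted p of 0.00938, 0.0138 and 0.0157. The median of the ring was 0.23 to 0.34 when each library was left out. With the length and GC trend removed Psma4 alone passed, where 10.1% of genes were called higher. Its log2 fold change was then 0.23 (adjusted p = 0.00939). When the replicate number was added to the corrected fit as a block, Psma1 and Psma3 passed too (adjusted p = 0.0141 and 0.0100). In that fit 12.5% of genes were called higher.

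In the beta ring, whose inner face holds the active sites, 3 of the 7 genes passed, where 10.9% of genes tested were called higher. The difference from the alpha ring was not tested. In all 7 genes both FeSO4 libraries lay above both Mock libraries, where 30.1% of genes tested did. The log2 fold changes of the 7 genes ran from 0.15 to 0.23 with a median of 0.20. Of these, Psmb1, Psmb3 and Psmb6 passed the threshold, and 0 of the 7 did with the trend removed, where 10.1% of genes were called higher. The median of the ring was 0.14 to 0.25 when each library was left out. With the replicate number as a block 6 of the 7 passed, Psmb2, Psmb4 and Psmb5 among them, where 13.4% of genes were called higher.

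The catalytic beta subunits are Psmb5, Psmb6 and Psmb7, with chymotrypsin-like, caspase-like and trypsin-like activity. Psmb5 (ENSMUSG00000022193, chromosome 14, 54614120 to 54617995) was at 105 and 93.7 CPM without and 119 and 111 CPM with FeSO4. The highest Mock library came close to the lowest FeSO4 library, and the difference of 0.21 ± 0.07 (SE, 95% interval 0.05 to 0.37) did not pass (adjusted p = 0.0563). It was 0.14 without Mock replicate 2 and 0.29 without Mock replicate 1. Psmb6 (ENSMUSG00000018286, chromosome 11, 70525324 to 70527858) was at 152 and 134 CPM without and 176 and 158 CPM with FeSO4, the largest log2 fold change of the ring. Here the spread within each group was larger than the gap between the groups, and the gene passed narrowly (0.23 ± 0.08, SE, adjusted p = 0.0435). Without Mock replicate 2 its value was 0.14 and without FeSO4 replicate 1 it was 0.15, and in both fits it did not pass and Psmb1, at 0.20, was above it. Psmb7 (ENSMUSG00000026750, chromosome 2, 38588046 to 38643952) was at 116 and 113 CPM without and 132 and 122 CPM with FeSO4, the smallest log2 fold change of the ring (0.15 ± 0.07, SE, adjusted p = 0.135), and its sign changed to -0.011 with the trend removed. RefSeq names 6 pseudogenes after 4 members, Psma5 and these 3 catalytic genes. The 3 of them with a row had at most 2 counts in any library. The table sets reads with more than 1 alignment apart from the gene counts, and how many of them came from these genes was not tested.

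Of the structural beta subunits, Psmb1 varied least between replicates, at 235 and 236 CPM without and 270.3 and 270.4 CPM with FeSO4 (0.20 ± 0.06, SE, adjusted p = 0.0298). Psmb3 was at 229 and 217 CPM without and 268 and 249 CPM with FeSO4 (0.21 ± 0.06, SE, adjusted p = 0.0322). Psmb2 and Psmb4 had log2 fold changes of 0.20 and 0.16 and did not pass (adjusted p = 0.0686 and 0.078). The value of Psmb2 was 0.11 without Mock replicate 2 and 0.29 without Mock replicate 1.

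In the base of the 19S particle, 4 of the 6 ATPase genes rose and 0 of the 3 other genes did, where 10.9% of genes tested were called higher. The difference between these sets was not tested. The ATPases form the ring that unfolds substrates and threads them into the core, and those that passed were Psmc2, Psmc3, Psmc5 and Psmc6, with a median log2 fold change of 0.20 over the 6. Psmc5 (ENSMUSG00000020708, chromosome 11, 106256185 to 106263112) was at 144 and 136 CPM without and 182 and 173 CPM with FeSO4. Both FeSO4 values were well above the Mock values, and the log2 fold change was 0.34 ± 0.07 (SE, adjusted p = 0.00163). Psmc6 was at 114 and 110 CPM without and 141 and 134 CPM with FeSO4 (0.30 ± 0.07, SE, adjusted p = 0.00539). With the length and GC trend removed, Psmc5 was at 0.23 and passed (adjusted p = 0.00828), and Psmc6 was at 0.078 and did not (adjusted p = 0.441).

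Psmc2 and Psmc3 rose by 0.20 and 0.19 on the log2 scale (adjusted p = 0.0356 for each), and the exons of Psmc3 overlap those of Slc39a13 on the opposite strand. Psmc4 was at 156 and 143 CPM without and 175 and 165 CPM with FeSO4 and did not pass (adjusted p = 0.0739), although it did without Mock replicate 1 (0.0364) and with the replicate number as a block (0.0235). Psmc1 had the smallest log2 fold change of the ATPases, with 170 and 167 CPM in Mock against 182 and 184 CPM in FeSO4 (0.13 ± 0.06, SE, 95% interval -0.01 to 0.26, adjusted p = 0.182). The libraries of Psmc1 did not overlap, yet the interval included 0. The median of the 6 ATPase genes was 0.17 to 0.24 when each library was left out.

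The other base subunits are Psmd1 and Psmd2, the large scaffolds of the base, and Psmd4, a ubiquitin receptor. Of these, 0 passed the threshold in edgeR's test, and 2 had an unadjusted p under 0.05 and were higher, against 17.1% of genes tested. Psmd2 (ENSMUSG00000006998, chromosome 16, 20651122 to 20663414), which docks shuttle factors that carry ubiquitinated substrates, was the only member with a fitted value below 0, at 340.0 and 332 CPM without and 345 and 303 CPM with FeSO4. FeSO4 replicate 1 was the highest of the 4 libraries and FeSO4 replicate 2 the lowest, and the log2 fold change was -0.05 ± 0.07 (SE, 95% interval -0.20 to 0.09, adjusted p = 0.633); without FeSO4 replicate 2 it was 0.040. Psmd1 was at 146 and 155 CPM without and 180 and 160.3 CPM with FeSO4 (0.17 ± 0.07, SE, adjusted p = 0.0983), and Psmd4 at 168 and 167 CPM against 188 and 182 CPM (0.14 ± 0.06, SE, adjusted p = 0.122). The value of Psmd1 rested on single libraries, at 0.26 without FeSO4 replicate 2, where it passed, but 0.12 without Mock replicate 1 and 0.095 without FeSO4 replicate 1.

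The lid was mixed. Its 8 genes had a median log2 fold change of 0.17. Of these, 3 rose, namely Psmd8, Psmd12 and Psmd14, where 10.9% of genes tested were called higher. Psmd12 (ENSMUSG00000020720, chromosome 11, 107479528 to 107498036), a scaffold subunit, was at 81.3 and 85.5 CPM without and 104 and 107 CPM with FeSO4. The gap between the groups was several times the spread within them (0.34 ± 0.07, SE, adjusted p = 0.00279). Psmd8 (ENSMUSG00000030591, chromosome 7, 29174187 to 29180673), another scaffold subunit, was at 294 and 286 CPM without and 349 and 345 CPM with FeSO4 (0.26 ± 0.06, SE, adjusted p = 0.00553).

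Psmd14, the metalloprotease that removes ubiquitin chains from substrates, was at 115 and 114 CPM without and 132 and 133 CPM with FeSO4. The replicates nearly coincided, and the gene passed at 0.21 ± 0.07 (SE, adjusted p = 0.0339). Its value was 0.21 to 0.22 when each library was left out. With the length and GC trend removed it was 0.023, and the gene did not pass (adjusted p = 0.818). Its partner Psmd7 had a log2 fold change of 0.15 and did not pass (adjusted p = 0.144). Psmd3 (ENSMUSG00000017221, chromosome 11, 98682554 to 98695978) had no detected difference, with 235 and 212 CPM without and 233 and 215 CPM with FeSO4 (0.00 ± 0.07, SE, 95% interval -0.14 to 0.15, adjusted p = 0.987), and its sign changed with the scaling. The scaffold genes Psmd6, Psmd11 and Psmd13 had log2 fold changes of 0.18, 0.16 and 0.12 and did not pass (adjusted p = 0.0651, 0.119 and 0.243), although Psmd6 did with the replicate number as a block (adjusted p = 0.0314). Both FeSO4 libraries of these 3 were above both Mock libraries, where this held for 30.1% of genes tested. The value of Psmd13 was 0.072 without FeSO4 replicate 1, 0.075 without Mock replicate 2 and 0.17 without FeSO4 replicate 2.

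The base chaperones had a median log2 fold change of 0.22, and 1 of the 3 rose, where 10.9% of genes tested were called higher. Psmd5 was at 72.3 and 67.8 CPM without and 80.8 and 82.8 CPM with FeSO4 and passed (0.22 ± 0.07, SE, adjusted p = 0.0425), but not with DESeq2 or in 3 of the 4 fits that left out a library. Psmd10, also known as gankyrin, was at 26.9 and 24.8 CPM without and 29.9 and 31.6 CPM with FeSO4, a difference of similar size with a wider error (0.25 ± 0.10, SE, adjusted p = 0.0847). Psmd9 was at 35.8 and 36.9 CPM without and 41.1 and 36.5 CPM with FeSO4, so that the groups overlapped (0.09 ± 0.09, SE, adjusted p = 0.527).

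**Figure D2:**
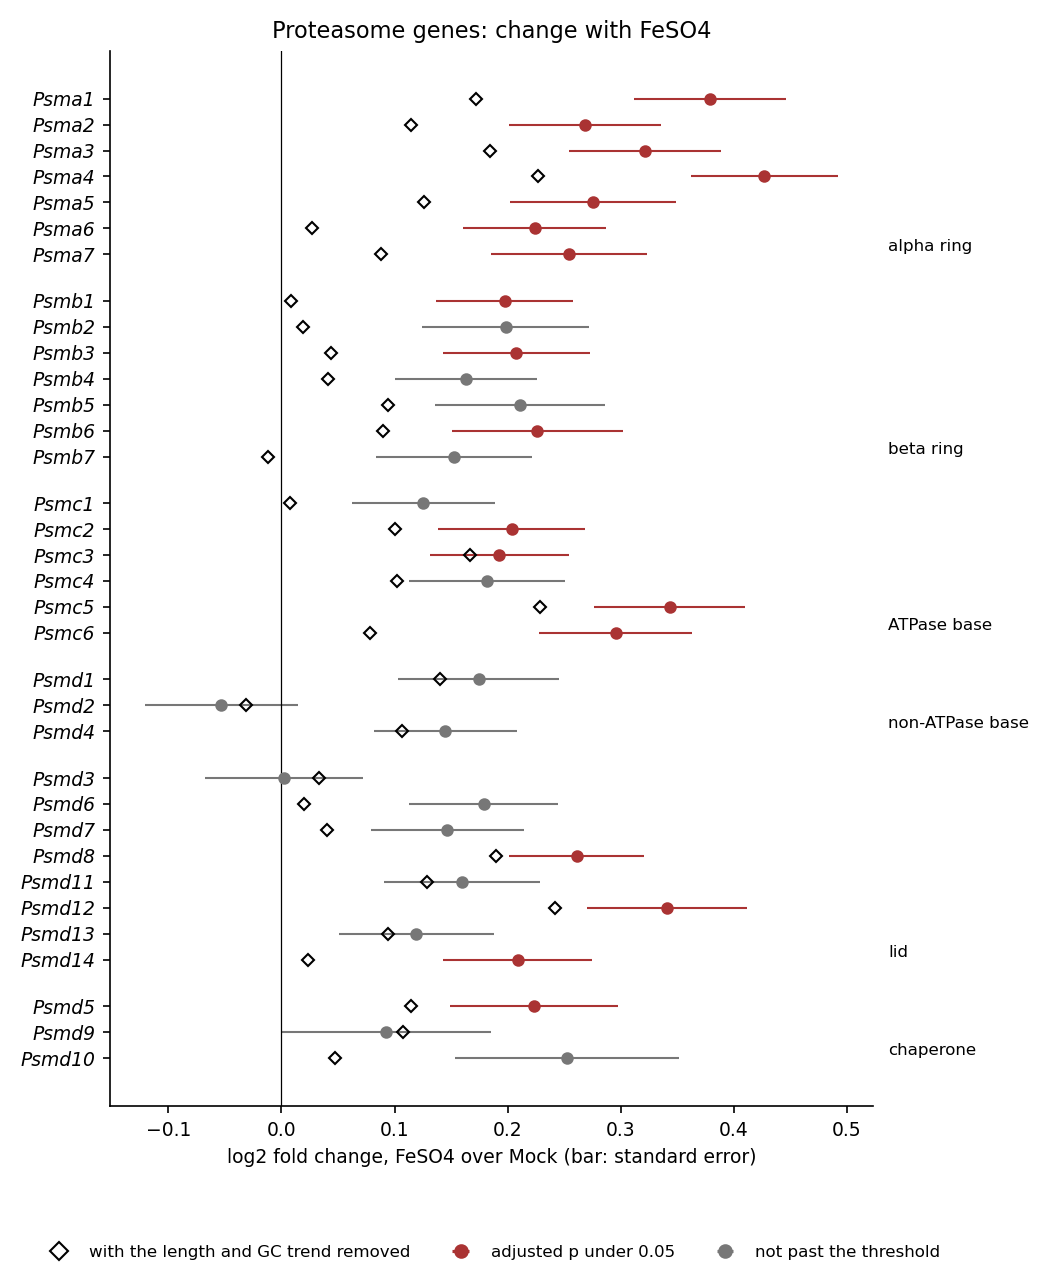
Log2 fold change of each proteasome gene, FeSO4 over Mock, with its standard error, by role; red points passed an adjusted p of 0.05 and open diamonds give the value with the length and GC trend removed. The red points include all 7 alpha ring genes, and most diamonds lie closer to 0 than the points, with a median of 0.094.

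At an adjusted p of 0.05, 4 of the 18 calls held in all 16 alternative settings, which leave out the study's threshold on the fold change, where 0 members passed. They were those of Psma4, Psmc5, Psmd8 and Psmd12, and those of Psma1 and Psma3 held in 15. The fewest were kept by Psmc2, Psmd14 and Psmd5, in 7 of 16. The 4 genes whose call held in all 16 settings belong to the alpha ring, the ATPase ring and the lid. The share of all genes whose call held in every setting is not given here. Besides Psma4 and Psmc3, the exons of Psma5, Psmb7, Psmd1, Psmd3 and Psmd13 overlap a gene on the opposite strand. On the same strand, exons of Psmb5 overlap Mir686 and those of Psmd1 overlap Armc9. Those of Psmd14 overlap another identifier of the same name, which has no row in the count table.

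Summed over the genes of a subcomplex, the alpha ring had the largest relative difference. Its 7 genes together were at 1126 and 1064 CPM without and 1391 and 1316 CPM with FeSO4, 23.6% more. The beta ring was at 1252 and 1174 CPM without and 1421 and 1351 CPM with FeSO4, 14.3% more. The sums of the alpha and beta rings did not overlap between the groups.

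The base, with 9 genes, was at 1647 and 1624 CPM without and 1876 and 1761 CPM with FeSO4, 11.2% more. The lid was at 1231 and 1194 CPM without and 1388 and 1342 CPM with FeSO4, 12.6% more. The 34 members together took 0.551 and 0.531% of the gene counts in Mock and 0.607 and 0.581% in FeSO4, and with TMM-scaled values FeSO4 was 14.9% higher. An exact two-sided permutation test of any such sum cannot go below p = 0.333 with 2 libraries against 2, and each sum reached that value.

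Ratios within a library do not depend on the scaling. The log2 ratio of the alpha ring to the beta ring was -0.15 and -0.14 in Mock and -0.03 and -0.04 in FeSO4, a shift of 0.11 that was larger than the spread within either group. The log2 ratio of the 20S core to the 19S particle was -0.27 and -0.33 in Mock and -0.22 in both FeSO4 libraries, a shift of 0.09. The ratio of base to lid overlapped between the groups (0.42 and 0.44 in Mock, 0.43 and 0.39 in FeSO4). The exact two-sided permutation p was 0.333 for the former 2 ratios, the smallest possible, and 0.667 for the last. With the length and GC trend removed, the median log2 fold change was 0.13 in the alpha ring and 0.04 in the beta ring. It was 0.10 in the ATPases, 0.11 in the other base subunits, 0.07 in the lid and 0.11 in the chaperones.

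**Figure D3:**
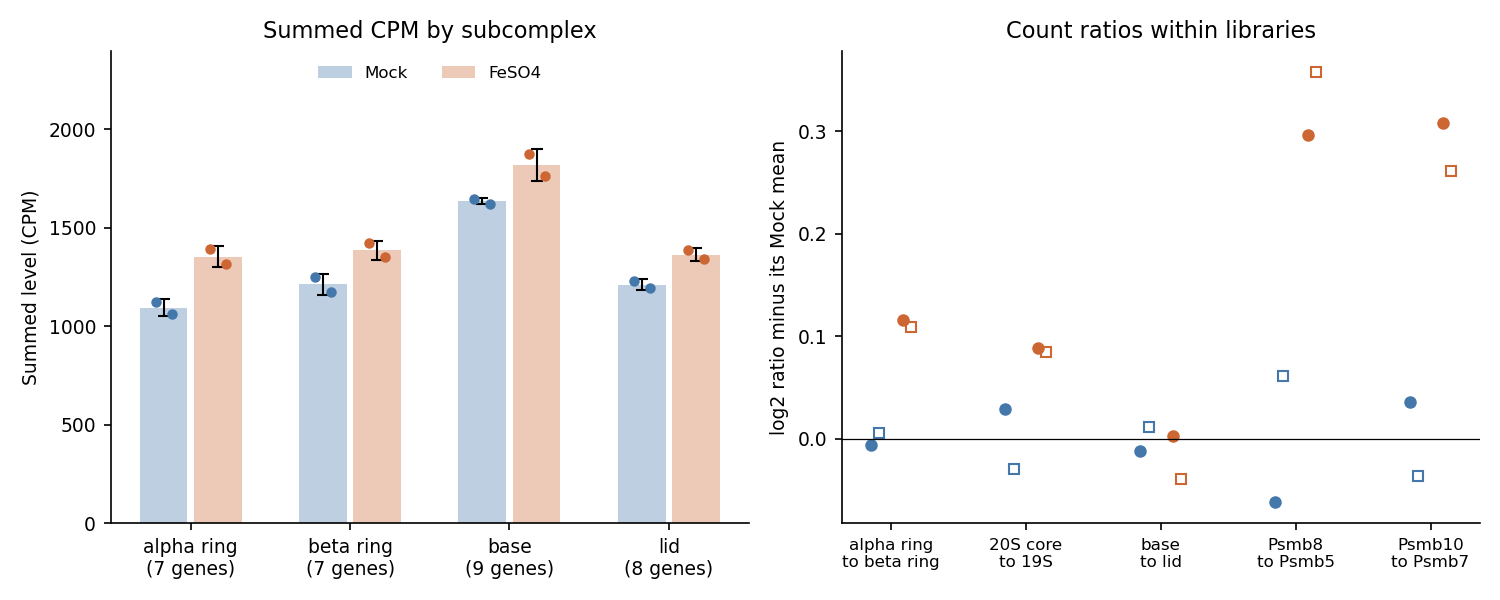
Left, summed CPM of the genes of each subcomplex, with bars for the mean, points for the 2 libraries and lines for the SD (n = 2). Right, log2 count ratios within each library minus the Mock mean of that ratio, with filled circles for replicate 1 and open squares for replicate 2 (blue Mock, orange FeSO4); the ratio of Psmb8 to Psmb5 stands 0.33 above Mock on average, and that of base to lid overlaps.

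The inducible subunits Psmb8 and Psmb10 take the places of Psmb5 and Psmb7 in the immunoproteasome, and the fitted changes of both were larger than those of the genes they replace. Psmb8 was at 158 and 153 CPM without and 229 and 223 CPM with FeSO4 (log2 fold change 0.54 ± 0.06, SE, adjusted p = 1.63e-05). Psmb10 was at 73.8 and 68.6 CPM without and 102 and 91.3 CPM with FeSO4 (0.44 ± 0.08, SE, adjusted p = 0.000847). For Psmb9, the counterpart of Psmb6, no row was matched by identifier, and it was not analysed here.

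The log2 ratio of Psmb8 to Psmb5 counts was 0.59 and 0.71 in Mock and 0.95 and 1.01 in FeSO4, a shift of 0.33. The log2 ratio of Psmb10 to Psmb7 was -0.65 and -0.72 in Mock and -0.37 and -0.42 in FeSO4, a shift of 0.28. Neither pair overlapped between the groups (exact two-sided permutation p = 0.333, the smallest possible). Both inducible genes also passed with the length and GC trend removed (0.50 and 0.37 on the log2 scale), and their differences from Psmb5 and Psmb7 were then 0.41 and 0.38. The genes of the activator PA28, Psme1 and Psme2, rose by 0.27 and 0.48 on the log2 scale (adjusted p = 0.00601 and 0.000106), while the activator genes Psme3 and Psme4 were at 0.03 and -0.00 and overlapped between the groups.

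Beyond these, the list of other pathway genes covered assembly factors, ubiquitin receptors and deubiquitinases, shuttles, ubiquitin and its activating enzymes, transcriptional regulators and nuclear import. Of the 38 genes on it, with the inducible subunits and activators included, 36 had a row and 34 were tested; 12 rose and 1 fell, with a median log2 fold change of 0.16, where 10.9% of all genes were called higher and 9.17% lower. Psmb8, Psmb10, Psme1 and Psme2 are among the 12. The calls of Psmb8, Psmb10, Psme2, Usp14 and Nfe2l2 held in all 16 alternative settings, and the other 8 were lost in at least 1. The tissue-specific subunits Psma8 and Psmb11, of testis and thymus, had at most 1 count in any library. Of the assembly factors of the core, Pomp (0.32, adjusted p = 0.00369), Psmg1 (0.32, adjusted p = 0.0313) and Psmg4 (0.39, adjusted p = 0.0133) rose, and Psmg2 and Psmg3 overlapped between the groups. None of the 3 passed with the trend removed.

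Both deubiquitinases that bind the 19S particle rose, Usp14 by 0.42 and Uchl5 by 0.41 on the log2 scale (adjusted p = 0.00079 and 0.00148). Adrm1, the ubiquitin receptor to which Uchl5 binds, was at -0.05 with overlapping libraries (adjusted p = 0.632), and Shfm1, a small lid subunit, was at 0.16 (adjusted p = 0.104). Usp14 also passed with the trend removed (0.27, adjusted p = 0.0105), and Uchl5 did not (0.21, adjusted p = 0.0519). With the replicate block added to this, Uchl5 passed (adjusted p = 0.0281).

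Other genes of the list act upstream of the particle or in its transport. Of the 8 shuttle and segregase genes, Rad23b rose (0.23, adjusted p = 0.0159), and the other 7, with the segregase Vcp among them, lay between -0.09 and 0.10 and did not pass. The ubiquitin-activating enzyme Uba6 rose by 0.36 on the log2 scale (adjusted p = 0.0389), a call that held in 8 of the 16 settings and was lost with DESeq2 (adjusted p = 0.0683), with the trend removed (0.0982) and in 3 of the 4 fits that left out a library. The ubiquitin gene Ubb and the activating enzyme Uba1, with larger counts, were at 0.13 and 0.16 (adjusted p = 0.159 and 0.0709). Ipo9, which carries proteasomes into the nucleus, was the gene that fell (-0.25 ± 0.07, SE, adjusted p = 0.0147), and it did not pass with the trend removed (adjusted p = 0.178). Its partner Akirin2 was at 0.24 (adjusted p = 0.0873), the inhibitor Psmf1 at 0.13 (adjusted p = 0.288) and the tethering factor AI314180 at 0.13 (adjusted p = 0.206).

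Nfe2l1, the regulator of proteasome genes, was at 105 and 106 CPM without and 115 and 111 CPM with FeSO4. The groups were separate but close, and the gene did not pass (0.10 ± 0.07, SE, adjusted p = 0.318), although it did with the trend removed (0.23, adjusted p = 0.011). Nfe2l2, which encodes the oxidative stress factor NRF2, rose from 61.9 and 63.8 CPM to 86.9 and 78.2 CPM (0.39 ± 0.08, SE, adjusted p = 0.00199). Ddi2 and Ngly1, which cleave and deglycosylate NFE2L1, were at -0.18 and 0.21 on the log2 scale and did not pass (adjusted p = 0.201 and 0.0757).

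**Figure D4:**
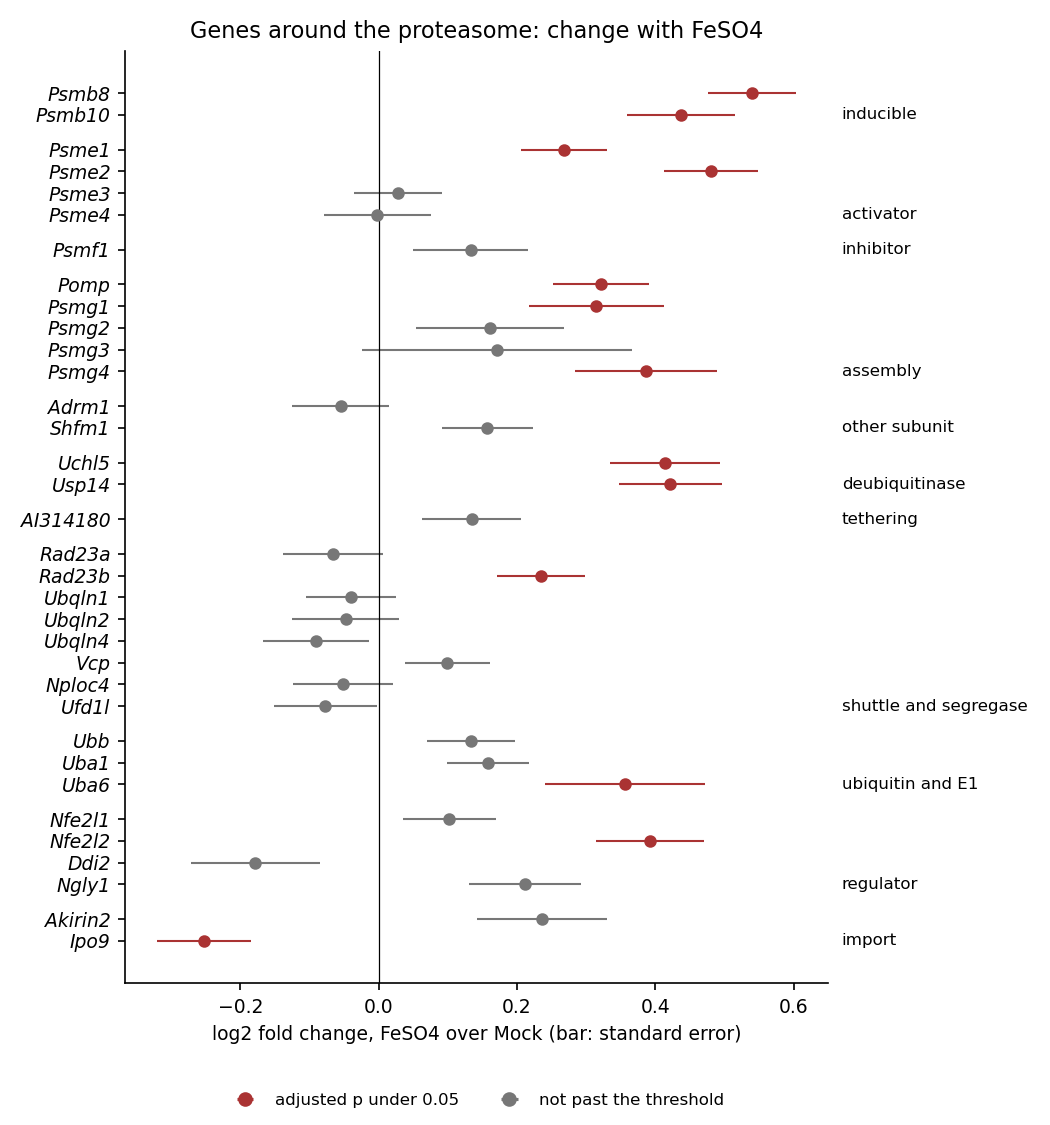
Log2 fold change, FeSO4 over Mock, with its standard error, of the 34 tested pathway genes that are not members, by role (red, adjusted p under 0.05). The inducible subunit Psmb8 has the largest value, 0.54, and Ipo9 the smallest, -0.25.

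Members with and without a motif match are set side by side. The median log2 fold change was 0.23 for the 5 members with the TGACNNNGC core and 0.21 for the 23 others with a window, and 0.22 against 0.21 for the CCAAT box. For the ETS box it was 0.17 with and 0.24 without a match. These medians are a description, with no test.

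Levels can be compared between genes only per transcript length. In Mock, in CPM per kb of the longest coding transcript, the median was 125 in the alpha ring, 179 in the beta ring, 105 in the ATPases, 95.4 in the other base subunits and 80.0 in the lid, against 9.88 over 11900 tested genes with a length. The 3 chaperones were at 14.0 to 34.7 CPM per kb, and the subunit Psmd11 lay within that range. Among the 31 subunits, which are present in equal number within their subcomplex in the assembled particle, the level ranged 9.40-fold, from 31.0 for Psmd11 to 292 for Psmb3. Psmb1 (228), Psmb4 (224) and Psmd8 (192) followed Psmb3, and Psmd12 (42.6), Psma3 (48.3) and Psmd1 (48.4) stood above Psmd11. The difference between Psmb1 and Psmb4 was within the SD of the latter (10.8, n = 2), as was that between Psma3 and Psmd1 (SD 2.30 and 2.15). The transcript in use may be shorter than the longest 1 annotated, which this scale does not account for.

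The changes of the members were set against their level, length and base composition. Across the 34 members, the log2 fold change had a Pearson r of -0.12 with the log2 mean CPM, -0.29 with log2 transcript length and -0.49 with transcript GC content (Spearman rho -0.11, -0.27 and -0.44), given as a description of genes measured in the same 4 libraries. Grouped by length, the 5 members under 1000 bases had a median of 0.21, where all 442 genes of that length had 0.20. The 11 members of 1000 to 1500 bases had 0.22 against 0.13 for 739 genes, the 9 of 1500 to 2000 bases 0.19 against 0.09 for 910 genes, and the 9 of 2000 to 3200 bases 0.17 against 0.03 for 2302 genes. Psmd2 (-0.05) and Psmd3 (0.00), both in the last of these ranges, lay below its median over all genes. The 3977 genes of at least 3200 bases, among which there was no member, had a median of -0.05.

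**Figure D5:**
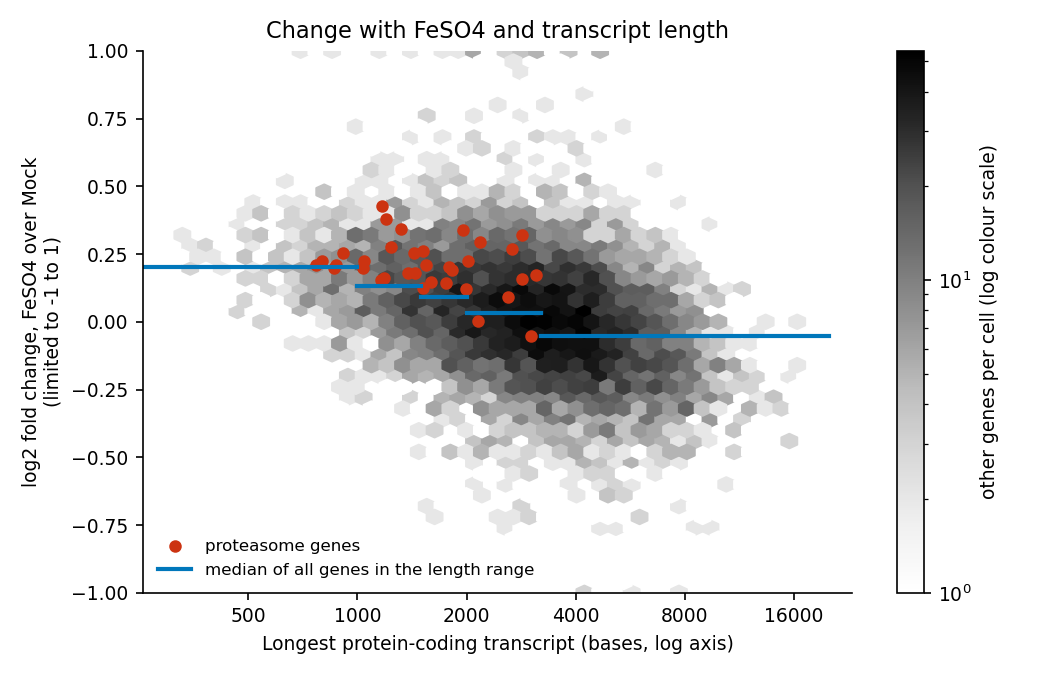
Log2 fold change, FeSO4 over Mock (axis limited to -1 to 1), against the length of the longest coding transcript (bases, log axis). Of 8370 genes of at least 10 CPM, the 34 proteasome genes are red points and the others grey cells. Blue lines give the median of all genes in each length range. The blue lines step down from 0.20 under 1000 bases to -0.05 at 3200 bases and above.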

How the data were processed

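Counts per gene in 2 Mock and 2 FeSO4 libraries were analysed, with groups taken from the labels. The authors deposited raw counts of reads, not normalized, for each Ensembl gene. The study's methods name STAR and the build mm9, while the submitters' processing notes name Trim Galore 0.6.7, STAR 2.7.9a, featureCounts and mm10; the annotation and strand setting are not given in the sources used here. The 5 closing lines of the table, reads assigned to no gene, were left out (no feature 4.36 to 6.03%, more than 1 alignment 4.27 to 4.62% of all reads in the table). A gene at 0 counts can be at up to 3 counts, or 0.0717 to 0.0875 CPM, which covers counting error only.

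Counts were tested in R 4.3.3 with edgeR 4.0.16 (filterByExpr, TMM, quasi-likelihood F test, FeSO4 against Mock, Benjamini-Hochberg adjustment over 13732 genes), and the fit was tested on simulated data. The SE is the size of the log2 fold change divided by the square root of F. Alternatives were DESeq2 1.42.0, limma-voom (limma 3.58.1), the replicate number as a block, other filters and scalings, leaving out each library, and corrections added after the data were seen. Values per library are given for the catalytic subunits and, in each role, for the largest and smallest change and the smallest p; others named with values were chosen after their values were seen. Symbols were matched for 32799 identifiers. Lengths come from GENCODE M1 (NCBIM37) and positions and promoters from RefSeq (GRCm38.p6). The exons of 9 members overlap another gene's, 7 on the opposite strand. The members, lists and tests were chosen with earlier results of these data known. Some items of the lists are not reported here.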

Additional observations from a re-analysis of the deposited data

How the results depend on the processing

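Of the 34 members, 0 were called lower in any setting, and 18 were higher. The count was 17 with DESeq2 (9.63% of all genes were called higher), 18 with limma-voom and with DESeq2's size factors (10.6% each), 12 with the upper quartile (9.36%) and 19 with at least 10 counts in every library (12% of 12492 genes). With library size only it was 9, with a median log2 fold change of 0.14, while the median of all genes moved to -0.07 and 986 genes (7.18%) were higher. Without a filter on low counts it was 6 (all genes 524 higher, 2.36%, and 304 lower, with more genes in the adjustment). At the study's threshold, applied here to edgeR's p-values and not to those of DESeq2, it was 0 (641 genes higher and 787 lower). With the length and GC trend removed it was 5 (1203 genes higher and 867 lower among all) and the median was 0.094, and with the replicate block added to this it was 7 with a median of 0.094 (12.5% of 11900 genes higher). The cause of these shifts was not tested. Leaving out each library gave 6 to 17 members, a median of 0.17 to 0.24, and 893 to 1199 higher and 710 to 1158 lower genes among all.

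The replicate number as a block gave 23 members (median 0.21; 1846 genes higher and 1579 lower among all, 13.4% higher), and Psmb2, Psmb4, Psmb5, Psmc4 and Psmd6 passed in addition. The deviations of same-numbered libraries correlated by 0.03 over 13732 genes and 0.22 over 8521 genes of at least 10 CPM, and the labels do not say that a number marks an experiment. The sign of Psmd3 changed with DESeq2 (-0.0014), its size factors (-0.0015), at least 10 counts (-0.0030), the upper quartile (-0.017), library size only (-0.062), and without Mock replicate 2 or FeSO4 replicate 1, with values of -0.069 to 0.075 when each library was left out. That of Psmd2 changed without FeSO4 replicate 2, with values of -0.15 to 0.040, and that of Psmb7 with the trend removed, with or without the block (-0.012 and -0.011). Depth limited no member, but 2 libraries a group leave each SD resting on 1 difference.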
